A study of Mus musculus with 12 samples.

Results

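The transcription factors that establish and maintain the hepatocyte state were followed in cultured mouse hepatocytes exposed to benzbromarone and oleic acid. The group holds 8 genes of the 22471 features measured, found by their symbols: Foxa1, Foxa2, Foxa3, Cebpa, Onecut1, Prox1, Hnf4a and Nr5a2. All 8 were found in every library and all 8 passed the filter on low counts in every comparison. RNA was sequenced in 12 libraries, 3 in each of 4 groups. Con is the control, BBR was given benzbromarone (a uric acid-lowering drug) at 15 µM, ConOA was given oleic acid (a monounsaturated fatty acid that loads hepatocytes with lipid) at 0.2 mM, and BBROA was given both. Per the methods of the study the cells were primary hepatocytes of male C57BL/6J mice aged 6 weeks, exposed for 16 h. The vehicle that Con received is not given in the sources used here. The labels name the tissue as liver and the design text equates oleic acid with a high-fat diet, while the methods describe an isolated culture. The replicates are called biological, but whether each came from a separate mouse is not said, so the p values measure the spread between labelled replicates.

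Hepatocyte identity is held by a small network of transcription factors that bind one another's genes as well as the genes for plasma proteins, metabolic enzymes and bile acid transporters. FOXA proteins are forkhead pioneer factors that open chromatin, C/EBPα and the homeobox factors HNF6 and PROX1 act with them, and the nuclear receptors HNF4α and LRH-1 carry much of the output to metabolic genes. In culture hepatocytes are known to drift away from this state over time, and the levels of these factors are commonly read as a measure of how far a culture remains differentiated.

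Several of the genes start at more than 1 place, which matters here because a gene-level count adds up the transcripts from all of its starts. Hnf4a is the textbook case: an upstream promoter (P2) and a downstream promoter (P1) give proteins that differ at the amino terminus, and the adult liver mainly uses the downstream one. RefSeq lists 13 start windows for the 8 genes on GRCm38.p6. The windows of Hnf4a and Nr5a2 are shown because the counts and the length-scaled values of these genes moved apart between libraries, as described further on. Each reads 5′ to 3′ along the 250 bases before the RefSeq start, without bases that the annotation places in an exon, so the upstream Hnf4a window stops short of the start it belongs to. Capitals mark matches to short core letters of the binding sites of this family, searched on both strands: ATTGAT for ONECUT factors, TTGCNNAA for C/EBP, TGTTTAC with its variant forms TATTTAC and also TGTTTGC for FOXA, AAGGTCA for LRH-1 and CAAAGTCCA for HNF4.
Hnf4a upstream start, chr2:163506607-163506807, plus strand: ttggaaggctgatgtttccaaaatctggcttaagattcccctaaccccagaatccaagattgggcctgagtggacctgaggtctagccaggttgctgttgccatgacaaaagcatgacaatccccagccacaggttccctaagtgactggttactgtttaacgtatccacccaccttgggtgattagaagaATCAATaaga
Hnf4a downstream start, chr2:163546943-163547154, plus strand: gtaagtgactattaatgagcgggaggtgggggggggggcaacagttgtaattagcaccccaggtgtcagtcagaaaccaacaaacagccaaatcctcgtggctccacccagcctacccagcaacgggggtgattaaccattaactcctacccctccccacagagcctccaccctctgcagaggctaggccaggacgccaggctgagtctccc
Nr5a2 upstream start, chr1:136960449-136960698, minus strand: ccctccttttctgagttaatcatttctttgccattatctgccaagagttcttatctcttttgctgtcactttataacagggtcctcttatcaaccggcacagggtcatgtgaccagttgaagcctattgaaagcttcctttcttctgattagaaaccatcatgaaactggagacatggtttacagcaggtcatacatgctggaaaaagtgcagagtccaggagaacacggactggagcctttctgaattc
Nr5a2 downstream start, chr1:136953631-136953880, minus strand: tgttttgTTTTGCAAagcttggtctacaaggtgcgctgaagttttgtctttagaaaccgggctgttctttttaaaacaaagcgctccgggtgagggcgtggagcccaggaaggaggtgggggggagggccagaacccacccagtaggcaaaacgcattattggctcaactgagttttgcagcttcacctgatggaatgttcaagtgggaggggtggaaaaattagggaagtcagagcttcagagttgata
The upstream Hnf4a window held 1 ONECUT match, 59 to 54 bases before the RefSeq start. The downstream Nr5a2 window held 1 C/EBP match, 243 to 236 bases before the start, and the other two windows held none of the letters searched. Such short letters are common: of 32851 mouse windows of 250 bases, 6.72% held the ONECUT letters and 9.56% the C/EBP letters. The 3 FOXA forms stood in 3.17%, 2.73% and 4.3%, the LRH-1 letters in 4.08% and the HNF4 letters in 0.384%. The matches are descriptions of the letters and were not read as bound sites.

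The libraries held 15485508 to 23668379 counts. Values are given as CPM, the count of a gene scaled to a common library size, here with TMM factors over the 12 libraries. Hepatocyte markers (Alb, Ttr, Apoa1, Ahsg, Apob and Serpinc1) summed to 33555 to 34997 CPM in Con, 39974 to 41191 in ConOA, 34661 to 36350 in BBR and 41565 to 43669 in BBROA, so the labelled cell type carried its defining genes in every library. All replicate pairs differed by more than counting noise, so no library was a duplicate of another. In bulk RNA, fewer cells of a type and less RNA per cell cannot be told apart.

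On the deposited FPKM scale, which is divided by transcript length and so allows genes to be compared, Hnf4a was the most abundant of the 8 in Con at 52.9 ± 1.8 FPKM (SD, n = 3 here and below). Cebpa followed at 32.3 ± 1.2 FPKM, Foxa2 at 19.0 ± 0.74 and Foxa3 at 17.5 ± 0.24. Nr5a2 stood at 7.18 ± 0.44 FPKM, Foxa1 at 5.87 ± 0.29, Prox1 at 3.95 ± 0.067 and Onecut1 at 1.48 ± 0.17. No neighbours in this order overlapped in Con. Hnf4a, Cebpa, Prox1 and Onecut1 kept their ranks as means in all 4 groups, while Foxa3 and Foxa2 changed places in BBR and BBROA with overlapping values, and Foxa1 passed Nr5a2 in BBR with overlapping values. The genes were counted well: a library held 43 counts (Onecut1 in BBR replicate 2) to 3511 counts (Hnf4a in Con replicate 3) of a gene, and the coefficient of variation within a group had a median of 4.74%.

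**Figure D1:**
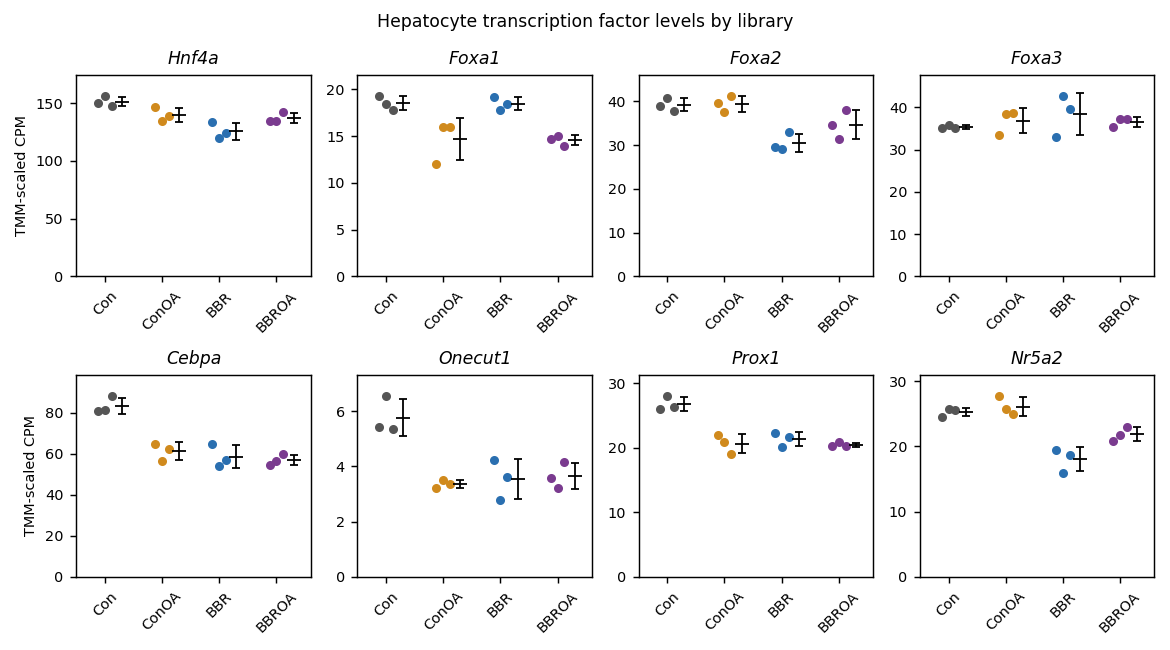
Levels of the 8 hepatocyte transcription factors (vertical axes: TMM-scaled CPM, from 0) in the 4 groups; points are the 3 libraries of a group, the bar beside them is the mean and SD. Cebpa, Onecut1 and Prox1 stood highest in Con and lower in all 3 treated groups, Foxa2, Nr5a2 and Hnf4a had their lowest means in BBR, and Foxa1 was lower in both groups with OA.

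BBR alone lowered most of these factors. Against Con, 6 of the 8 genes were lower in BBR at an adjusted p under 0.05 and none was higher, where 14.5% of the 12555 genes tested were lower and 13.2% higher. The 6 were Cebpa, Onecut1, Prox1, Hnf4a, Nr5a2 and Foxa2, and in each of them all 3 BBR libraries lay below all 3 Con libraries, which 22.3% of all genes did. The share of counts on mitochondrial genes also differed, at 5.50 to 6.07% in Con and 6.34 to 6.89% in BBR without overlap (5.63 to 6.28% in ConOA and 6.09 to 6.59% in BBROA), and its part in the result was not tested. The median change over the 8 was -0.33 on the log2 scale, while the median over all genes tested lay between -0.00606 and -0.000309 in the 4 comparisons. OA alone lowered 4 of the 8, Cebpa, Onecut1, Prox1 and Foxa1, and raised none, where 21.5% of the 12418 genes tested were lower in ConOA than in Con and 21.3% higher. The median over the 8 was -0.21. Same-numbered libraries of ConOA and Con deviated together, as described under the processing. With the replicate number kept as a block in the edgeR fit, Hnf4a was also called lower (-0.11, adjusted p = 0.0155). In that fit 3295 of the 12418 genes were lower and 3333 higher. These comparisons share the 3 Con libraries, so their values are set side by side and not counted as separate evidence.

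With OA also present, BBR changed none of the 8 past the threshold in the edgeR fit without a replicate block. In BBROA against ConOA, 4.59% of the 12278 genes tested were called (1.95% higher and 2.63% lower), and of the 8 factors 0 were called by edgeR and 0 by DESeq2. At an unadjusted p under 0.05 edgeR had 19.1% of 12278 genes, and DESeq2 had 10% of 16418, which were not filtered on low counts. Both tools had 2 of the 8 factors. In the edgeR fit these were Nr5a2 and Foxa2, both lower in BBROA. With the replicate number kept as a block in that fit, Nr5a2 (-0.26, adjusted p = 0.0266) and Foxa2 (-0.19, adjusted p = 0.0387) were called lower. The block called 1333 of the 12278 genes, 578 higher and 755 lower. Whether same-numbered libraries are paired in this comparison is not known. In BBROA against BBR, Nr5a2 was higher and Foxa1 lower, where 38.9% of the 12416 genes tested were called, 20.1% higher in BBROA than in BBR and 18.8% lower.

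**Figure D2:**
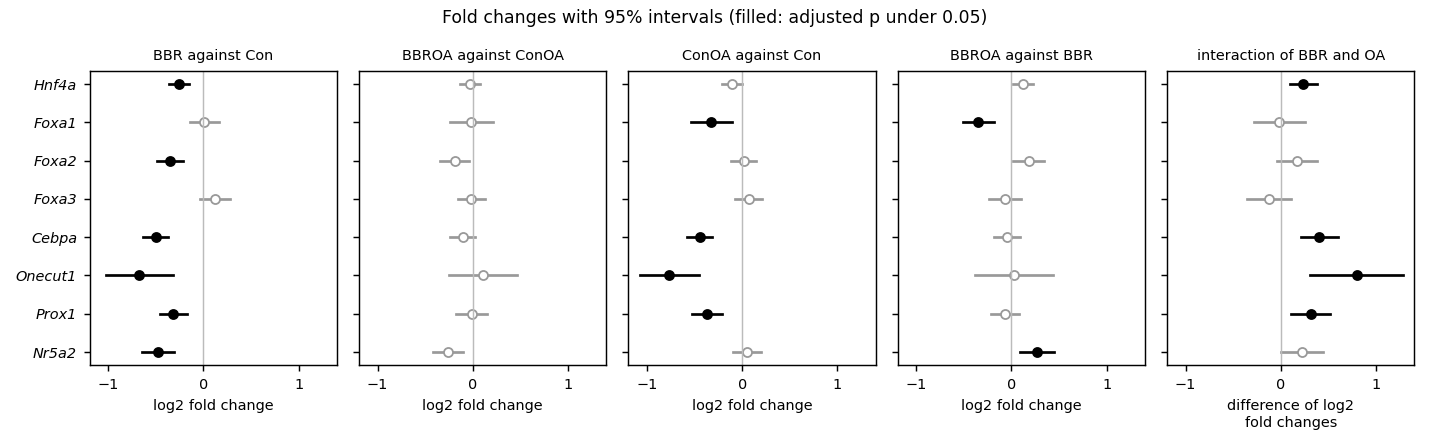
Log2 fold change of each factor (horizontal axis) with its 95% confidence interval in the 4 comparisons of 2 groups, and in the last panel the difference between the BBR change with OA and without OA. Filled points have an adjusted p under 0.05: 6 lie left of 0 for BBR against Con and none is filled for BBROA against ConOA.

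The forkhead factors did not move together. Foxa1 (ENSMUSG00000035451, chr12:57540628-57546916, minus strand) encodes a pioneer factor that binds its sites in closed chromatin. It read 19.3, 18.5 and 17.8 CPM in Con, 12.1, 16.02 and 15.9 in ConOA, 19.1, 17.8 and 18.5 in BBR, and 14.7, 15.01 and 13.9 in BBROA. The 6 libraries with OA lay below the 6 without it, and ConOA replicate 1 was the lowest of all. The share of all genes with this separation was not computed. Foxa1 fell by 0.32 on the log2 scale in ConOA against Con (SE 0.10, adjusted p = 0.0173) and fell by 0.35 in BBROA against BBR (SE 0.076, adjusted p = 0.00219). The first of these calls was lost without ConOA replicate 1 (-0.20, adjusted p = 0.0808) or without Con replicate 1 (-0.29, adjusted p = 0.0583). For BBR the change was 0.01 without OA (95% interval -0.15 to 0.17) and -0.02 with OA (-0.24 to 0.21).

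Foxa2 (ENSMUSG00000037025, chr2:148042877-148046969, minus strand) encodes the family member tied to fasting and bile acid genes in the liver. Its levels were 38.8, 40.8 and 37.9 CPM in Con, 39.5, 37.6 and 41.2 in ConOA, 29.6, 29.0 and 32.9 in BBR, and 34.5, 31.4 and 38.1 in BBROA. BBR held the lowest values without overlap with Con, and BBROA spanned the gap between BBR and the groups without the drug. Foxa2 fell by 21.7% with BBR, or 0.35 on the log2 scale (SE 0.064, adjusted p = 0.000595). In BBROA against ConOA the change was -0.19 (95% interval -0.35 to -0.04, adjusted p = 0.157), and in BBROA against BBR it was 0.18 (0.02 to 0.34, adjusted p = 0.0714). The latter passed the threshold without BBR replicate 3 (0.24, adjusted p = 0.0403) or BBROA replicate 2 (0.25, adjusted p = 0.0254), and with no filter on low counts (0.18, adjusted p = 0.0452). With the replicate number as a block, both passed (-0.19, adjusted p = 0.0387, and 0.18, adjusted p = 0.0183). OA alone left Foxa2 at 0.02 (-0.11 to 0.15).

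Foxa3 (ENSMUSG00000040891, chr7:19013284-19023538, minus strand), the third FOXA gene and the one most restricted to endoderm, read 35.03, 35.8 and 35.1 CPM in Con, 33.3, 38.4 and 38.7 in ConOA, 33.0, 42.6 and 39.6 in BBR, and 35.2, 37.3 and 37.2 in BBROA. All 4 groups overlapped. None of its changes passed the threshold. For BBR against Con it was 0.12 (95% interval -0.04 to 0.28, adjusted p = 0.268), which became 0.23 (adjusted p = 0.0178) when BBR replicate 1, the lowest of the 3, was left out.

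Cebpa (ENSMUSG00000034957, chr7:35119293-35121928, plus strand) encodes C/EBPα, a leucine zipper factor of gluconeogenic and urea cycle genes that also restrains hepatocyte division. It read 81.1, 81.4 and 88.0 CPM in Con, 64.9, 56.2 and 62.3 in ConOA, 64.8, 53.8 and 56.9 in BBR, and 54.7, 56.5 and 59.6 in BBROA. All 9 treated libraries lay below all 3 Con libraries, and the treated groups overlapped one another. Of all genes, 22.3% had BBR and 27.0% had ConOA below Con without overlap. The share with all 3 treated groups below Con was not computed. Cebpa fell by 0.50 with BBR (SE 0.063, adjusted p = 1.99e-05) and fell by 0.44 with OA (SE 0.061, adjusted p = 4.80e-05), both against Con. With the other agent present, neither change passed the threshold. It was -0.11 for BBROA against ConOA (95% interval -0.24 to 0.03, adjusted p = 0.386) and -0.05 for BBROA against BBR (-0.19 to 0.09). Both intervals include a further fall.

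The homeobox factors had the pattern of Cebpa. Onecut1 (ENSMUSG00000043013, chr9:74861921-74891781, plus strand) encodes HNF6, a cut-homeodomain factor of liver and bile duct development. It was the least counted of the 8, at 5.42, 6.54 and 5.35 CPM in Con, 3.23, 3.52 and 3.37 in ConOA, 4.23, 2.77 and 3.61 in BBR, and 3.59, 3.22 and 4.17 in BBROA. The 9 treated libraries again lay below Con and overlapped one another. The change was the largest of the 8 in both comparisons with Con: Onecut1 fell by 0.67 with BBR (SE 0.17, adjusted p = 0.00594) and fell by 0.76 with OA (SE 0.15, adjusted p = 0.000745). In percent it fell by 37.3% and fell by 41.1%. At 43 to 137 counts a library its intervals were wide, from -0.25 to 0.47 for BBROA against ConOA and from -0.38 to 0.43 for BBROA against BBR.

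Prox1 (ENSMUSG00000010175, chr1:190118035-190170714, minus strand) encodes the prospero homeobox factor, needed for hepatoblasts to migrate and known as a partner of HNF4α and LRH-1. It read 26.0, 27.9 and 26.3 CPM in Con, 21.9, 20.8 and 19.1 in ConOA, 22.2, 20.03 and 21.7 in BBR, and 20.2, 20.8 and 20.3 in BBROA. The 3 treated groups shared 1 range below Con. Prox1 fell by 0.32 with BBR (SE 0.069, adjusted p = 0.00255) and fell by 0.37 with OA (SE 0.073, adjusted p = 0.000909). The change was -0.01 for BBROA against ConOA (95% interval -0.17 to 0.15) and -0.07 for BBROA against BBR (-0.21 to 0.08).

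In CPM the nuclear receptors were lowest in BBR alone. Hnf4a (ENSMUSG00000017950, chr2:163506808-163572910, plus strand) encodes HNF4α, the receptor on which most hepatocyte genes depend. It read 150.3, 156 and 148 CPM in Con, 147, 135 and 139 in ConOA, 134, 119.6 and 124 in BBR, and 135, 135 and 142 in BBROA. Con lay above the other groups and BBR below them, with ConOA and BBROA overlapping in between. This order depended on the scale. In FPKM the lowest mean was that of BBROA at 41.0 ± 2.1, beside 43.8 ± 2.2 in ConOA and 44.1 ± 3.6 in BBR, with overlapping values. Hnf4a fell by 0.26 with BBR, or 16.5% (SE 0.050, adjusted p = 0.000929). In ConOA against Con the change was -0.10 (95% interval -0.21 to 0.00, adjusted p = 0.107), though the groups did not overlap, and it was called once the replicate number was kept as a block (-0.11, adjusted p = 0.0155) or with upper quartile scaling (-0.15, adjusted p = 0.0242). Beside this count of 5 factors whose ConOA libraries all lay below Con, 27.0% of all genes did so. BBROA against BBR gave 0.12 (0.02 to 0.23, adjusted p = 0.0557). This change passed without BBR replicate 1 (0.17, adjusted p = 0.0127) or with no filter on low counts (0.13, adjusted p = 0.0470). It also passed with the replicate number as a block (0.13, adjusted p = 0.029). BBROA against ConOA gave -0.03 (-0.14 to 0.07).

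Nr5a2 (ENSMUSG00000026398, chr1:136842571-136960448, minus strand) encodes LRH-1, a receptor of bile acid and cholesterol genes. Its levels were 24.5, 25.7 and 25.6 CPM in Con, 27.7, 25.7 and 25.0 in ConOA, 19.4, 15.9 and 18.7 in BBR, and 20.9, 21.7 and 23.0 in BBROA. The groups without the drug overlapped, BBROA lay below them and BBR lay lowest, so it is the one factor of the 8 with all BBROA libraries below all ConOA libraries (11.8% of all genes). Nr5a2 fell by 0.48 with BBR alone (SE 0.078, adjusted p = 0.000247). With OA present the change was -0.26 (SE 0.072, adjusted p = 0.0535). It passed without ConOA replicate 3 (-0.29, adjusted p = 0.0458) and with no filter on low counts (-0.26, adjusted p = 0.0344). It also passed in the fit on all 12 libraries (-0.26, adjusted p = 0.046) and with the replicate number as a block (-0.26, adjusted p = 0.0266). BBROA stood above BBR by 0.27 (SE 0.082, adjusted p = 0.0186), a call lost without BBR replicate 2 (0.20, adjusted p = 0.0713) or BBROA replicate 3 (0.23, adjusted p = 0.0709), with DESeq2 (0.28, adjusted p = 0.051) and with limma on FPKM (0.22, adjusted p = 0.309). OA alone gave 0.05 (95% interval -0.09 to 0.20).

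Whether the BBR change differed with OA was tested as the difference of the 2 log2 changes over all 12 libraries. It was positive and called for 4 of the 8, Cebpa, Onecut1, Prox1 and Hnf4a, where 6.87% of 12742 genes were positive and 5.31% negative. The differences were 0.41 (SE 0.095, adjusted p = 0.00832) for Cebpa, 0.80 (SE 0.23, adjusted p = 0.0311) for Onecut1, 0.31 (SE 0.097, adjusted p = 0.0408) for Prox1 and 0.24 (SE 0.069, adjusted p = 0.0311) for Hnf4a. For Cebpa, Onecut1 and Prox1, ConOA overlapped BBR and BBROA, as the values above show. Cebpa kept its call with any 1 library left out and in the other fits tried. Hnf4a lost it without any 1 of 8 libraries (Con replicates 1 and 2, ConOA 2, BBR 2 and 3, BBROA 1, 2 and 3; 0.19 to 0.24, adjusted p from 0.0520 to 0.135). Onecut1 lost it without any 1 of 7 (Con 2, ConOA 1 and 2, BBR 2 and 3, BBROA 1 and 3; 0.66 to 0.81, adjusted p from 0.0565 to 0.102). Prox1 lost it without any 1 of 10 (Con 1, 2 and 3, ConOA 2 and 3, BBR 2 and 3, BBROA 1, 2 and 3; 0.26 to 0.33, adjusted p from 0.0533 to 0.108). With all libraries, Hnf4a lost it with limma on FPKM (0.17, adjusted p = 0.268), and Onecut1 with limma on FPKM (0.78, adjusted p = 0.0570) and DESeq2 (0.79, adjusted p = 0.0551). Prox1 lost it with DESeq2 (0.30, adjusted p = 0.114), RLE scaling (0.30, adjusted p = 0.0529) and no filter (0.31, adjusted p = 0.0528). The difference for Nr5a2 was 0.23 (95% interval 0.01 to 0.45, adjusted p = 0.183), for Foxa2 0.17 (-0.04 to 0.38), for Foxa3 -0.13 (-0.36 to 0.11) and for Foxa1 -0.02 (-0.29 to 0.25).

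The counts and the FPKM values deposited for the same library did not always move together. Dividing a gene's count by its FPKM and the library total gives the transcript length used, and this length was steady for 4 of the 8: over the 12 libraries it varied by 0.0529% for Foxa3, 0.187% for Foxa1, 0.412% for Cebpa and 0.829% for Onecut1. It varied by 9.10% for Foxa2, 17.9% for Prox1, 30.8% for Nr5a2 and 33.9% for Hnf4a. The annotation lists 3, 3, 5 and 4 starts of coding transcripts for these last 4 genes, against 1 each for Foxa1, Foxa3 and Onecut1 and 2 for Cebpa. For Hnf4a, whose start regions are printed above, the implied length was 2851 to 2968 bases in Con, 3012 to 3306 in ConOA, 2588 to 3102 in BBR and 3231 to 3465 in BBROA. The 6 libraries with OA lay above the Con libraries, and BBROA lay above BBR. For Nr5a2 it was 3380 to 3725 bases in Con, 3318 to 3815 in ConOA, 3048 to 3988 in BBR and 3411 to 3633 in BBROA, with all groups overlapping. For Prox1 it was 6708 to 7024 bases in Con, 7009 to 7594 in ConOA, 7279 to 7907 in BBR and 7141 to 7220 in BBROA, so BBR and BBROA both lay above Con. For Foxa2 it was 2080 to 2090 bases in Con, 2079 to 2090 in ConOA, 1916 to 2079 in BBR and 2078 to 2087 in BBROA. Its spread came from BBR replicates 2 and 3, at 1916 and 1941 bases. Which transcripts were counted cannot be read from gene-level files. Antisense genes also overlap Hnf4a (Hnf4aos), Cebpa (Gm45091) and Prox1 (Prox1os and Gm28172), same-strand genes overlap Hnf4a (Gm25881) and Onecut1 (Gm20649), and none of them has a row of its own, so reads of overlapping genes cannot be told apart here. On the FPKM scale, tested with limma on log2(FPKM + 0.1), Hnf4a was lower in ConOA than in Con by a called amount (-0.27, adjusted p = 0.00346), its BBROA against BBR change turned to -0.10, and the BBR change of Nr5a2 missed the threshold (-0.43, adjusted p = 0.0763).

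**Figure D3:**
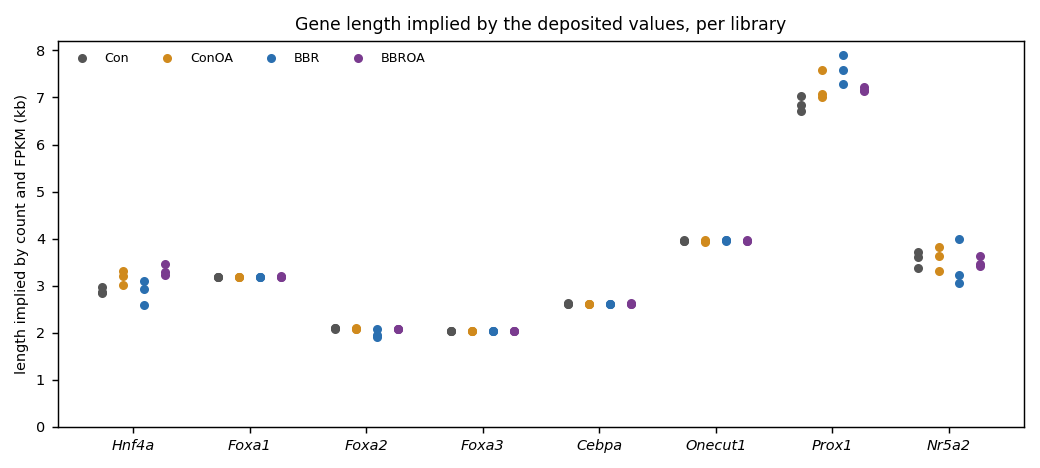
Transcript length (vertical axis, kb, from 0) implied by the deposited count, FPKM and library total for each factor; each point is 1 of the 12 libraries, coloured by group. Foxa1, Foxa3, Cebpa and Onecut1 each sit at 1 length, while Hnf4a spreads from 2588 to 3465 bases with its highest values in BBROA.

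Other regulators of the same network, 38 genes, fell more often than they rose with BBR. Of 37 tested against Con, 16 were lower and 2 higher (all genes: 14.5% and 13.2%), with a median of -0.13. Among the largest falls with non-overlapping groups were nuclear receptors. Nr1h4, the bile acid receptor FXR, went from 15.5 ± 0.23 to 7.99 ± 0.71 CPM (-0.94, SE 0.093, adjusted p = 1.82e-06). Nr1i2, the xenobiotic receptor PXR, went from 15.1 ± 0.44 to 9.17 ± 0.35 CPM. The 2 that rose were Creb3l3, a liver factor held in the endoplasmic reticulum membrane until processed, from 50.3 ± 1.8 to 90.4 ± 5.1 CPM (0.85, SE 0.054, adjusted p = 2.31e-08), and Onecut2, the relative of Onecut1, from 154 ± 9.6 to 224 ± 16 CPM (0.55, SE 0.057, adjusted p = 2.78e-06). Onecut1 and Onecut2 moved in opposite directions with BBR.

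With OA also present, 3 of the 35 regulators tested were called in BBROA against ConOA, all higher. They were Creb3l3 (0.74, SE 0.055, adjusted p = 2.52e-06), Klf15, a glucocorticoid-responsive factor (0.65, SE 0.16, adjusted p = 0.0310), and Rora, an orphan receptor (0.20, SE 0.052, adjusted p = 0.0388). The median was -0.03, and 1.95% of all genes tested were higher. The Klf15 call was lost without BBROA replicate 1 (0.66, adjusted p = 0.0697) or 2 (0.53, adjusted p = 0.152) or ConOA replicate 1 (0.51, adjusted p = 0.0839) or 3 (0.67, adjusted p = 0.0521), and that of Rora without any 1 of 5 libraries (BBROA 1, 2 and 3, ConOA 2 and 3; 0.19 to 0.21).

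OA moved the regulators both ways. In ConOA against Con, 12 of 37 were higher and 15 lower (all genes: 21.3% and 21.5%), with a median of -0.14. Tef, a PAR leucine zipper factor of the circadian output, fell from 63.0 ± 3.4 to 24.0 ± 1.7 CPM (-1.38, SE 0.068, adjusted p = 2.84e-09), and Nr1i2 fell by 0.75. Creb3l3 (0.77), Cebpd (0.64), a C/EBP relative of Cebpa, and Ppara (0.62), the fatty acid receptor, rose. In BBROA against BBR, 15 of 36 were higher and 6 lower (all genes: 20.1% and 18.8%), with a median of 0.10. Klf15 (1.02) and Cebpd (0.69) rose, while Tef (-1.32), Onecut2 (-0.82) and the glucocorticoid receptor gene Nr3c1 (-0.30) fell.

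The products of hepatocytes were taken as 38 genes for plasma proteins, apolipoproteins, enzymes and transporters, of which 35 were tested. With BBR 19 were lower and 1 was higher (all genes: 14.5% and 13.2%), with a median of -0.19. The 1 that rose was Ttr, a thyroxine carrier, named after its value was seen. F7, a clotting factor, fell from 37.7 ± 5.2 to 15.9 ± 1.5 CPM (-1.24, SE 0.097, adjusted p = 1.52e-07), and Gys2, the liver glycogen synthase, from 7.21 ± 1.6 to 3.07 ± 0.27 CPM. In BBROA against ConOA 1 of 35 was lower, the fibrinogen chain gene Fgb (-0.22, SE 0.046, adjusted p = 0.0137), and none higher (all genes: 2.63% and 1.95%), with a median of 0.02. The Fgb call was lost without BBROA replicate 2 (-0.21, adjusted p = 0.0899) or 3 (-0.21, adjusted p = 0.0883).

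With OA 13 products were higher and 11 lower (all genes: 21.3% and 21.5%), with a median of -0.04. Cps1, the first enzyme of the urea cycle, rose from 17.9 ± 1.5 to 177 ± 20 CPM (3.32, SE 0.085, adjusted p = 2.37e-12). Abcb11, the bile salt export pump (1.22), and Tat, tyrosine aminotransferase (1.06), rose, while the tryptophan dioxygenase gene Tdo2 (-1.70) and the gluconeogenic Fbp1 (-0.73) fell. In BBROA against BBR 17 were higher and 6 lower (all genes: 20.1% and 18.8%), with a median of 0.22. Cps1 rose from 9.71 ± 2.2 to 193 ± 12 CPM (4.29, SE 0.097, adjusted p = 1.12e-12), Tat by 1.52 and Abcb11 by 1.47, and Tdo2 (-1.75), Ambp (-0.35), a plasma protein precursor, and Fbp1 (-0.30) fell. The last call was lost without BBR replicate 1 (-0.17, adjusted p = 0.0621) or BBROA replicate 2 (-0.26, adjusted p = 0.0624). The difference in BBR change with and without OA was positive for 10 products and negative for none of 35. Among the 37 regulators it was positive for 13 and negative for 1, beside 6.87% and 5.31% of all genes.

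**Figure D4:**
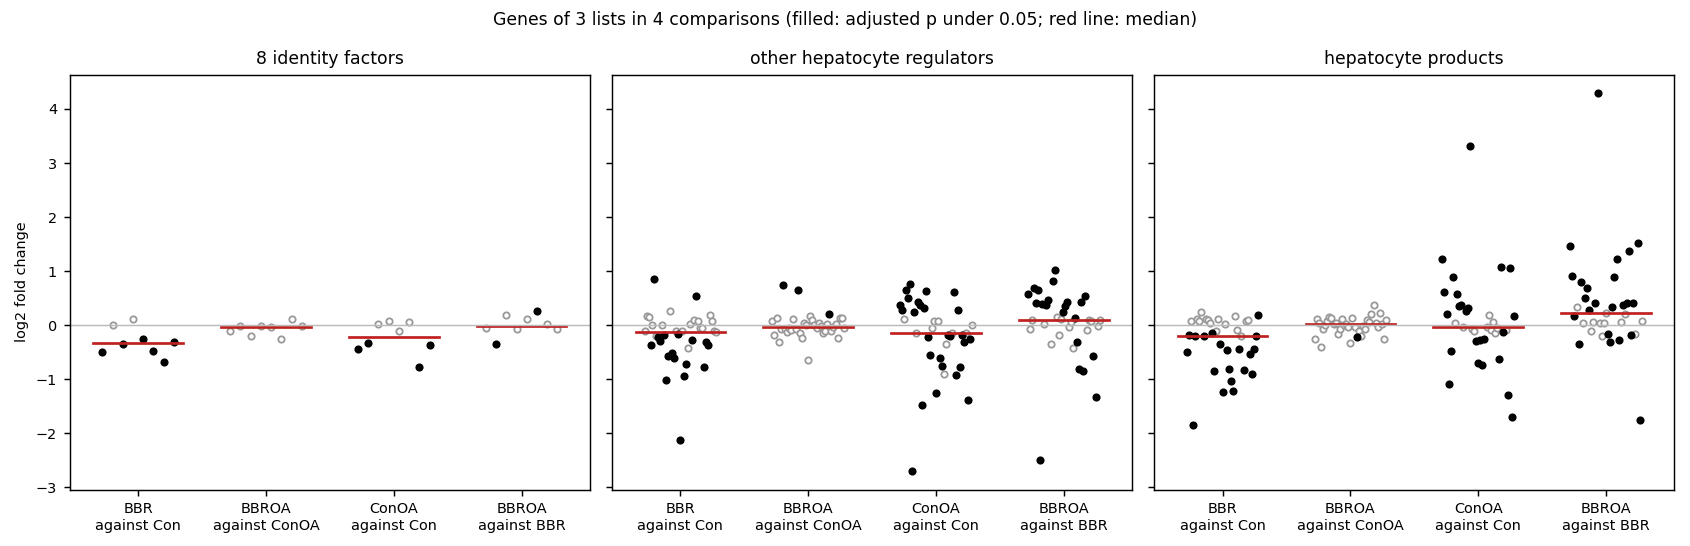
Log2 fold changes (vertical axis) of the 8 factors, the other hepatocyte regulators and the hepatocyte products in the 4 comparisons; each point is a gene, filled where its adjusted p is under 0.05, and the red line is the median. For BBR against Con the medians are -0.33, -0.13 and -0.19; for BBROA against ConOA they are -0.03, -0.03 and 0.02.

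Markers of bile duct cells, which also use Onecut1 and Foxa genes, moved in the same comparisons. Of the 10 markers 7 were tested, and with BBR Cldn4, Sox9, Krt19 and Epcam were higher and 2 lower, Spp1 among them. Their sum was 1237 to 1392 CPM in Con, 922 to 1130 in ConOA, 1194 to 1461 in BBR and 802 to 981 in BBROA, led by Cldn4 and Spp1, while the duct markers Krt7, Cftr and Tff2 had at most 3 counts in any library. With OA Sox9, Cldn4 and Cd24a were higher and Spp1 lower, and in BBROA against BBR Cd24a was higher and Sox9, Spp1 and Cldn4 lower. In BBROA against ConOA edgeR called 0 of 7, with 3 at an unadjusted p under 0.05, and DESeq2 called 1 of 9. Macrophage (Kupffer cell) markers summed to 27.4 to 44.3 CPM, endothelial markers to 76.9 to 94.7 and stellate cell markers to 26.3 to 32.6 over the 12 libraries. Against Con, 1 of 9 macrophage markers was lower with BBR, and 6 were lower and 2 higher with OA. Of the endothelial markers 3 of 10 were higher with BBR and 1 of 9 higher with OA, and of the stellate markers 1 of 7 was lower with BBR, and 1 of 6 was higher and 1 lower with OA. Over all genes tested, 14.5% were lower and 13.2% higher with BBR, and 21.5% and 21.3% with OA. In BBROA against BBR these shares were 18.8% and 20.1%. The part of the marker genes in the changes of the 8 factors was not tested.

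The genes whose levels followed each factor most closely over the 12 libraries, among 9613 genes with a mean of at least 5 CPM, are given as descriptions, since these libraries share the 4 groups. For Cebpa they were Mmp19, Saa4 and Shmt1 (Pearson r of log2 CPM 0.97, 0.97 and 0.96), for Prox1 Dapk1, Lima1 and Palld (0.97, 0.97 and 0.96) and for Onecut1 Pdxk, Pald1 and Garem1 (0.94, 0.93 and 0.93). For Hnf4a they were BC025446, Kifc3 and Mb21d2 (0.96, 0.94 and 0.94) and for Nr5a2 Bend3, Igfbp4 and Hpn (0.97, 0.97 and 0.96). For Foxa1 they were Naxe, Rarres1 and 2610008E11Rik (0.93, 0.92 and 0.92), for Foxa2 Thyn1, Ampd2 and Tmem268 (0.94, 0.93 and 0.92), and for Foxa3, whose groups overlap, Ilf2, Dhrs1 and Rabggtb (0.90, 0.87 and 0.83).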

How the data were processed

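Group and replicate came from the sample titles. The authors deposited for each library a table that pairs every feature with its estimated count and FPKM. The build was mm10 per the submitters' processing notes, and the aligner, the quantification program and the strand setting are not given in the sources used here. The estimated counts deposited by the authors were rounded to whole numbers (2862 of 22471 features were fractional in at least 1 library, none of the 8 factors). Of the Ensembl identifiers 99.71% matched GENCODE M21 (GRCm38), the source of the coordinates, and start windows came from RefSeq on GRCm38.p6. Depth was 15485508 to 23668379 counts, so 1 count was 0.0423 to 0.0646 CPM, and such limits cover counting error only.

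Counts were tested with edgeR 4.0.16 (R 4.3.3): TMM factors, filterByExpr with a minimum count of 10, and the two-sided quasi-likelihood F test on the 6 libraries of each comparison, or on all 12 for the difference in BBR change (contrast of 4 group means). The p values were adjusted by Benjamini-Hochberg over all genes tested, and a gene was called at an adjusted p under 0.05. The study's methods name edgeR and limma for pairs of groups. The fit scripts were tested on simulated data. FPKM values, scaled by the authors for length and depth, served to compare genes, to derive the implied length (count divided by FPKM and by the library total) and for a limma 3.58.1 fit on log2(FPKM + 0.1), an alternative chosen after seeing the data. Other alternatives were DESeq2 1.42.0, RLE and upper quartile scaling, no filter, the replicate number as a block, all 12 libraries in 1 fit, a limit of 1.5-fold and each library left out in turn.

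The 8 factors, the 38 other regulators, the 38 products (Tf was not matched in the files, and 37 were found) and the marker lists were chosen with earlier results of these data known. From the regulators and the products, the text names in each comparison up to 3 rises and 3 falls, the largest among called genes whose groups do not overlap and whose higher group averages 5 CPM or more, and up to 3 genes of most similar pattern per factor. Some genes that this rule picks are not reported here, though they count in the list totals. Same-numbered libraries of ConOA and Con deviated together (correlations over genes 0.155, 0.105 and 0.201), and by this sign the numbers pair these groups. In the other comparisons at least 1 pair was at or under 0.1.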

Additional observations from a re-analysis of the deposited data

Results flagged for a closer look

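Each result here was singled out because the BBR change differed between cultures with and without OA, by a test of that difference over all 12 libraries (edgeR's quasi-likelihood test, adjusted over all genes). A positive value means that the log2 change of BBROA against ConOA lay above that of BBR against Con. Among the 8 factors the difference was 0.24 (SE 0.069, adjusted p = 0.0311) for Hnf4a, 0.41 (SE 0.095, adjusted p = 0.00832) for Cebpa, 0.80 (SE 0.23, adjusted p = 0.0311) for Onecut1 and 0.31 (SE 0.097, adjusted p = 0.0408) for Prox1. Each of these factors was lower in BBR than in Con, and none was called in BBROA against ConOA.

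Among the other regulators named in the text it was 1.04 (adjusted p = 0.00034) for Nr1h4, 0.73 (adjusted p = 0.001) for Nr1i2 and 0.27 (adjusted p = 0.0482) for Rora. Onecut2 had the opposite sign at -0.67 (adjusted p = 0.000151), having risen with BBR alone. Among the hepatocyte products it was 1.04 (adjusted p = 0.0196) for Gys2, 0.98 (adjusted p = 0.000352) for Cps1, 0.93 (adjusted p = 0.000936) for F7, 0.60 (adjusted p = 9.25e-05) for Fgb and 0.44 (adjusted p = 0.0308) for Fbp1. These differences of single regulators and products were not recomputed under the alternatives described below. Groups of 3 libraries are too small for a test of single outlying libraries.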

How the results depend on the processing

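The values recomputed under the alternatives were those of the 8 factors in every comparison. For the genes picked by the naming rule, they were those in the comparison that picked the gene. Of these 1028 values, 930 kept their direction and their side of the threshold, 54 lost the call, 16 gained one and 28 changed sign. The cause was not tested for any of them. The limit of 1.5-fold, which can only remove calls, was applied to the counts of genes called and not to these values. Upper quartile scaling shifted the balance of all calls to 2077 higher and 3216 lower in ConOA against Con (2643 and 2669 with TMM), and to 1976 and 2870 in BBROA against BBR (2496 and 2330 with TMM). The depth limits Onecut1 most, at 43 counts in its lowest library.

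The number of the 8 factors called changed as follows. For BBROA against BBR it was 2, but 1 with DESeq2, 1 with limma on FPKM, 4 with no filter (Foxa2 and Hnf4a gained) and 0 with a limit of 1.5-fold. For BBROA against ConOA it was 0, but 1 in the fit on all 12 libraries and 1 with no filter, each time Nr5a2. For the difference in BBR change it was 4, but 2 with DESeq2, 2 with limma on FPKM, 3 with RLE scaling, 3 with no filter and 1 with the fold limit. The fold limit left 1 of 6 for BBR against Con and 1 of 4 for ConOA against Con. Otherwise the count was 5 with limma on FPKM for BBR against Con, and 5 with upper quartile scaling, limma on FPKM or the block for ConOA against Con.

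The fold limit of 1.5 also left 7 of 18 regulators for BBR against Con, 12 of 27 for ConOA against Con, 8 of 21 for BBROA against BBR and 6 of 14 for the difference, and 8 of 20, 12 of 24, 10 of 23 and 6 of 10 products in the same order, with 0 of 1 for BBROA against ConOA. Over all genes it left 784 of 3484 for BBR against Con, 1470 of 5312 for ConOA against Con, 1287 of 4826 for BBROA against BBR, 109 of 563 for BBROA against ConOA and 528 of 1551 for the difference. For BBROA against ConOA, limma on FPKM called 185 genes and 1 regulator in place of 3, and no filter called 2 products in place of 1.

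With the replicate number as a block (the pairing of same-numbered libraries), the factors called were 4 in place of 2 for BBROA against BBR, with Foxa2 (0.18, adjusted p = 0.0183) and Hnf4a (0.13, adjusted p = 0.0290) gained, and 2 in place of 0 for BBROA against ConOA, Foxa2 (-0.19, adjusted p = 0.0387) and Nr5a2 (-0.26, adjusted p = 0.0266), where the block also called 5 products in place of 1 and 1333 genes in place of 563. Only ConOA and Con met the sign of pairing. In the other comparisons at least 1 pair was at or under 0.1, although in each of them every library correlated best with its own number. What same-numbered libraries share is not given in the sources used here, so whether they are paired in those comparisons is not known. The block ended no call of a factor.

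Leaving out 1 library at a time gave 1 to 3 factors for BBROA against BBR, 0 to 1 for BBROA against ConOA and 1 to 4 for the difference. It gave 1 to 2 regulators for BBROA against ConOA and 8 to 14 for the difference, and 12 (without BBR replicate 2) to 20 products for BBR against Con and 0 to 2 for BBROA against ConOA. Over all genes it gave 4002 to 4369 for BBROA against BBR, 216 (without BBROA replicate 3) to 632 for BBROA against ConOA and 1027 (without ConOA replicate 2) to 1679 for the difference.

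All sign changes were in changes of the factors that were not called. With limma on FPKM they were Foxa1 for BBR against Con (-0.012) and for the difference (0.011), Foxa2 for ConOA against Con (-0.018), Hnf4a for BBROA against BBR (-0.10), and Prox1 for BBROA against BBR (0.0042) and BBROA against ConOA (0.0014). With upper quartile scaling they were Foxa2 for ConOA against Con (-0.028) and Onecut1 for BBROA against BBR (-0.017). With 1 library left out the range crossed 0 for Foxa1 in BBR against Con (-0.020 to 0.040), in BBROA against ConOA (-0.14 to 0.050) and in the difference (-0.14 to 0.047), for Foxa2 in ConOA against Con (-0.014 to 0.054), for Foxa3 in BBROA against BBR (-0.17 to 0.013) and BBROA against ConOA (-0.080 to 0.026), for Hnf4a in BBROA against ConOA (-0.062 to 0.0013), for Cebpa in BBROA against BBR (-0.10 to 0.038), for Onecut1 in BBROA against BBR (-0.11 to 0.18) and for Prox1 in BBROA against ConOA (-0.063 to 0.034).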
